A study of Mus musculus with 4 samples.

Results

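The 33 genes described here are p53, its regulators and well-known p53 targets together with the stress-inducible Gadd45, Btg and Plk genes. They were taken by symbol, and all 33 were among the 24328 rows of the expression table. Of these 33 genes, 30 reached 1 FPKM (fragments scaled to transcript length and library total) in at least 2 libraries and were tested, as were 12179 genes in all. The others, Pmaip1, Sesn2 and Tnfrsf10b, are given by their values only. Gdf15 passed the filter only through its DEK libraries.

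Satellite cells, the resident stem cells of skeletal muscle, were fixed in the animal by paraformaldehyde (PFA) perfusion, then sorted, and their polyadenylated RNA was sequenced. Both groups carried Pax7CreERT2/+, a Cre recombinase that tamoxifen activates and that is driven from the locus of the satellite cell factor Pax7. The 2 YFP libraries came from Pax7CreERT2/+; ROSA26YFP/+ mice aged 7 months, which carry a fluorescent reporter, and the 2 DEK libraries from Pax7CreERT2/+; H11DEK-EGFP/+ mice aged 4.5 months, which carry a transgene for the chromatin protein Dek fused to EGFP. Age, reporter and insertion site differ together with the transgene, so their contributions cannot be told apart. The labels state neither the sort gate, nor a tamoxifen schedule, nor how many animals stand behind a library, so the p-values measure only the spread between these libraries.

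In unstressed cells p53 (Trp53) is kept scarce because its own target Mdm2 marks it for degradation. DNA damage and other stresses release it, and it then switches on genes that stop division, repair DNA, slow growth or cause death. In satellite cells p53 is known for guarding survival during the exit from quiescence. Gadd45a, Btg2 and Plk2 are p53 targets too, but the Gadd45, Btg and Plk genes also respond within minutes to growth factors, inflammation and tissue injury without p53, in the manner of immediate early genes.

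Facts of the whole table bear on these genes as follows. Dek reached 3196 and 1640 FPKM in DEK replicates 1 and 2, from 512 and 504 FPKM in YFP. The precursor of ribosomal RNA, Rn45s, made up 5.15% and 5.55% of the summed FPKM in DEK but 11.8% and 15.7% of it in YFP. The 10 satellite cell markers summed to 2598 and 2445 FPKM in YFP and to 2308 and 2623 FPKM in DEK, with none of them at 0, so the labelled cell type was present in every library. Over all genes tested, limma called 4.57% higher in DEK at an adjusted p under 0.05. It called 9 of 12 endothelial markers higher, all 9 under 1 FPKM in both YFP libraries and so tested only through their DEK values. The endothelial sum went from 77.8 and 75.0 FPKM to 199.9 and 171 FPKM, with Kdr, Flt1 and Ptprb at 0 in both YFP libraries. Of 12 macrophage markers 7 were tested and 4 called higher, all 4 likewise under 1 FPKM in YFP, the sum went from 3.69 and 19.8 FPKM to 98.7 and 123 FPKM, and Adgre1, C1qa, C1qb and C1qc were at 0 in YFP. Other leukocyte markers summed to 6.47 and 62.0 FPKM in YFP and 101.6 and 227 FPKM in DEK, with 0 of 4 tested called by limma and 4 higher at an unadjusted p under 0.05. Erythroid markers summed to 8.04 and 0.527 FPKM in YFP and to 39.4 and 357 FPKM in DEK, with DEK replicate 2 far above DEK replicate 1 and 2 of 5 tested called higher, both under 1 FPKM in YFP. Of 9 markers of fibro-adipogenic progenitors, the connective tissue cells of muscle, 5 were called higher and 2 lower. Schwann cell markers had 2 of 4 and pericyte and smooth muscle markers 2 of 8 called higher. Of the higher calls, 1 fibro-adipogenic marker (Pi16) and 1 pericyte and smooth muscle marker (Myh11) were likewise under 1 FPKM in both YFP libraries. The part that such cells had in the results on the 33 genes was not tested.

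The clearest contrast lay between branches of the list. The branches were set by role with earlier results of these data known. The p53 targets Gadd45a, Btg2 and Plk2 were placed with the stress-inducible genes, so the contrast describes this grouping and is not a test. The Gadd45, Btg and Plk genes stood higher in both DEK libraries than in either YFP library, 7 of 7, and Gadd45b and Gadd45g passed the test. The p53 effectors Zmat3, Trp53inp1, Phlda3 and Perp fell to a little under or about 0.5 of their YFP level. The RNA of p53 and of its inhibitors passed no test in either direction. Fold changes were positive in 1 of 9 tested effectors of apoptosis, 1 of 5 of growth and 2 of 4 of DNA repair. Untested Pmaip1, an apoptosis effector, stood at 41.6 and 0.827 FPKM in DEK replicates 1 and 2, against 0.797 and 0 FPKM in YFP. Over the 30 genes tested, limma called 2 higher (6.67%) and 4 lower (13.3%) in DEK at an adjusted p under 0.05. Over all genes tested it called 557 higher (4.57%) and 391 lower (3.21%), or 418 and 565 with Rn45s removed and the libraries rescaled. Under that rescaling the median over all genes went from 0.05 to -0.07 on the log2 scale and the median over the 30 genes from 0.03 to -0.09, and left the calls at 2 higher and 4 lower. At an unadjusted p under 0.05 there were 8 higher and 8 lower, against 16.9% and 12.2% of all genes tested. Both DEK values lay above both YFP values in 14 of the 30 genes and below them in 11, against 34.0% and 26.9% of all genes tested. The positive and the negative fold changes numbered 15 each. With 2 libraries a group, an exact permutation test of a single gene cannot give a p below 0.333, and in such bulk samples fewer cells of a type and less RNA per cell cannot be told apart.

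**Figure D1:**
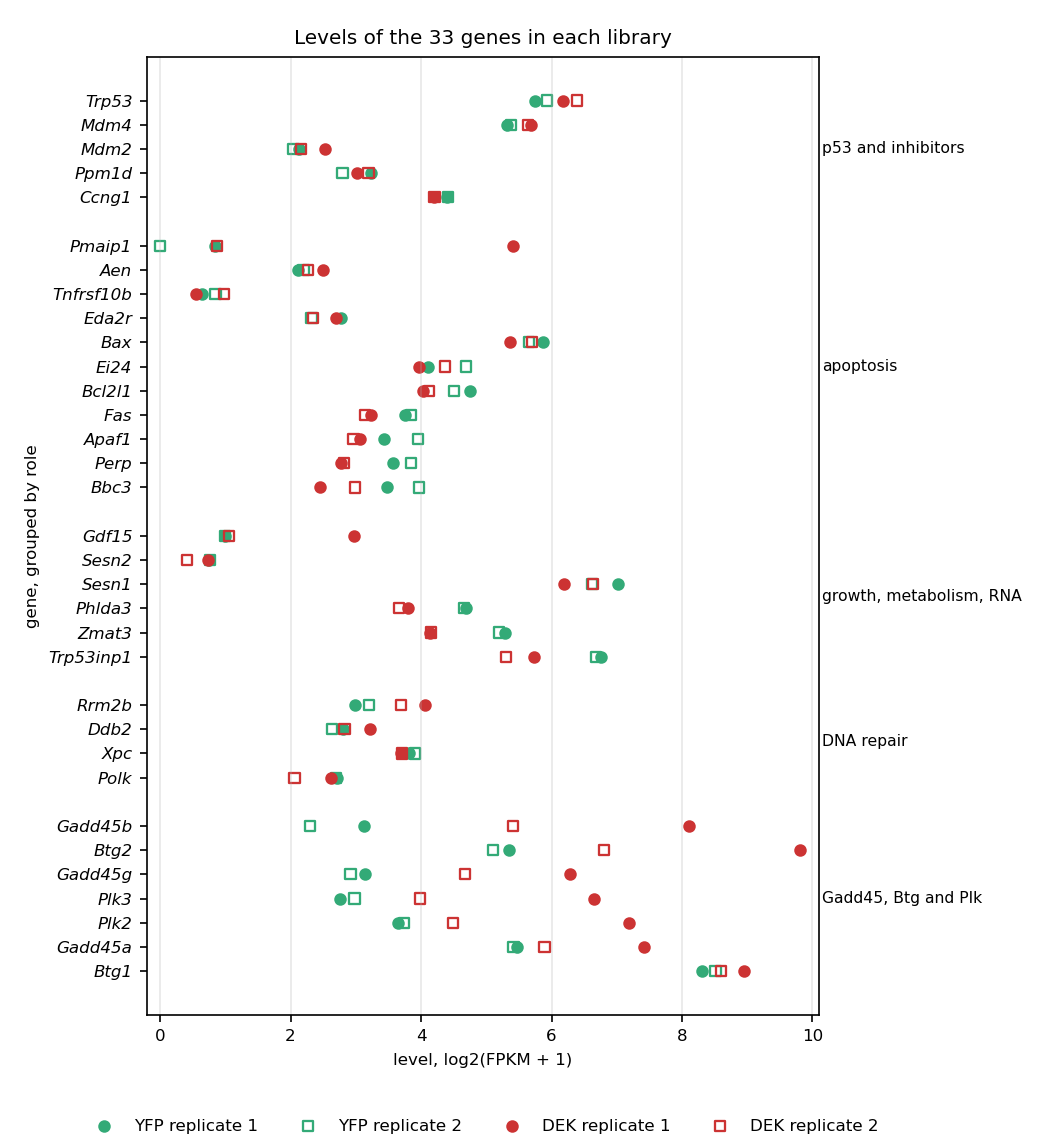
Levels of the 33 genes in each library as log2(FPKM + 1), grouped by role; circles are replicate 1 and open squares replicate 2, green for YFP and red for DEK. In the Gadd45, Btg and Plk genes other than Btg1, DEK replicate 1 lies far to the right of the rest, while for Zmat3, Trp53inp1, Phlda3 and Perp both DEK libraries lie left of both YFP libraries.

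Calls were sensitive to single libraries over all genes tested, and not only among these genes. On the same set of genes, every fit that left out a library called fewer genes over the whole table than the main fit, in both directions. The counts over the table are given at the end, and each such fit leaves 1 library in a group. With either YFP library or DEK replicate 1 left out on the same set of genes, limma called 0 of the 30 in either direction. The median log2 fold change of the 30 was then 0.19 without YFP replicate 1, -0.03 without YFP replicate 2 and 0.02 without DEK replicate 1. Over all genes tested it was 0.08, 0.01 and 0.09. The fit lacking DEK replicate 2 called 6 of the 30 higher and 0 lower, and over all genes tested it called 139 higher and 45 lower. Its DEK arm is a single library, assumed to vary as the YFP libraries do, so that these calls compare DEK replicate 1 with YFP. With the low filter applied to the 3 libraries kept, the fits, which again rest on 1 library in the reduced arm, called 3 higher and 2 lower when DEK replicate 1 was dropped, and 6 and 2 when DEK replicate 2 was. Dropping YFP replicate 1 or 2 again left 0 calls.

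The stress-inducible genes are described first, since the largest fold changes among the 30 genes were theirs. The 250 bases before the RefSeq transcription start are shown for 5 of them (GRCm38.p6, 5′ to 3′ on the gene's strand), as examples that hold different known motifs. All 7 genes of this branch stood higher in both DEK libraries, though only Gadd45b and Gadd45g passed the test. Btg1 and Plk3 hold matches too and are not shown. Capitals mark every match, on either strand, to the cyclic AMP response element (CRE) TGACGTCA, to its shorter core TGACG, to the TATA box TATAAA, to the AP-1 site TGANTCA or to the 10-base p53 half-site, of which a full p53 response element holds a pair. The shorter core lies inside every CRE. The coordinates are chr10:80929841-80930090 on the plus strand for Gadd45b, chr13:51846425-51846674 (plus) for Gadd45g, chr6:67037408-67037657 (minus) for Gadd45a, chr1:134079156-134079405 (minus) for Btg2 and chr13:110394794-110395043 (plus) for Plk2.
Gadd45b: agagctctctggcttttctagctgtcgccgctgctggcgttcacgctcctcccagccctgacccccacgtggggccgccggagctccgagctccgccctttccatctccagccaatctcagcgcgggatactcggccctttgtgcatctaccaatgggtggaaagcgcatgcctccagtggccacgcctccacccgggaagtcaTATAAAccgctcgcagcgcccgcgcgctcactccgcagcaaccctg
Gadd45g: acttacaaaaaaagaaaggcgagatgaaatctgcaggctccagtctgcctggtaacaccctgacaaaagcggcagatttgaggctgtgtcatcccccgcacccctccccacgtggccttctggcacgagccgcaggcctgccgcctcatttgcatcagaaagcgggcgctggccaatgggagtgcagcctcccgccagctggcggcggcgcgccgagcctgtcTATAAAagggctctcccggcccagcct
Gadd45a: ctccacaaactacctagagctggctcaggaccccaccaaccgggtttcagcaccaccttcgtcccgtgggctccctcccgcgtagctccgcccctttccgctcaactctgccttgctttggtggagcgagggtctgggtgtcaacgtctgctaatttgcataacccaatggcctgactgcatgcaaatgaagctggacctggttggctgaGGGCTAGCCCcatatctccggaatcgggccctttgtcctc
Btg2: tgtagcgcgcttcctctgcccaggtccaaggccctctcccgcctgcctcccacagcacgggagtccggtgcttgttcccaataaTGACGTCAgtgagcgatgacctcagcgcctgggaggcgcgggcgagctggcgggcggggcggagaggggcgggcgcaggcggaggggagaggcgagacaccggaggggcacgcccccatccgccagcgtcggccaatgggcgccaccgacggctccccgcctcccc
Plk2: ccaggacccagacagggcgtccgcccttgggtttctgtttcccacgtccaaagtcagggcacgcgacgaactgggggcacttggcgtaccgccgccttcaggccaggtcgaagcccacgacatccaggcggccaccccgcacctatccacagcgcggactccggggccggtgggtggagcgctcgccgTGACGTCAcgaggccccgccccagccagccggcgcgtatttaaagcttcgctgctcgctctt

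Gadd45b and Gadd45g each held a TATA box, at 46 to 41 and 27 to 22 bases before the start, Btg2 and Plk2 each a full CRE, at 166 to 159 and 62 to 55 bases before it, and Gadd45a a single p53 half-site at 40 to 31 bases before it. Of the 33 genes 25 had a RefSeq promoter. A full CRE was in 3 of these 25 (Btg2, Plk2 and Ppm1d; 1.77% of all 27025 genes with a promoter) and the shorter core in 8 (19.8% of all), among them Plk3. A TATA box was in 5 (14.3%), an AP-1 site in 2 (Fas and Mdm4; 7.82%) and a p53 half-site in 10 (8.20%), namely Aen, Bax, Ccng1, Ei24, Gadd45a, Mdm2, Polk, Ppm1d, Sesn1 and Trp53. These matches describe letters in a window and no binding was measured.

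Gadd45 proteins are small stress sensors that bind the kinase Map3k4, upstream of p38 and Jnk, and cell cycle proteins. Gadd45b stood at 7.69 and 3.91 FPKM in YFP, against 275 and 41.4 FPKM in DEK replicates 1 and 2. Both DEK libraries were thus above both YFP libraries, with DEK replicate 1 far above DEK replicate 2 (log2 fold change 4.05 with an SE of 0.83, limma adjusted p = 0.0423). Gadd45g stood at 7.81 and 6.57 FPKM in YFP, against 77.3 and 24.6 FPKM in DEK (log2 fold change 2.45 with an SE of 0.49, adjusted p = 0.0409). Its groups did not overlap either, and the lower DEK library stood 3.15-fold above the higher YFP library. The adjusted p ran from 0.000578 to 0.217 for Gadd45b and from 0.000796 to 0.204 for Gadd45g over 18 alternatives, of which 8 and 10 kept the call. Gadd45a, the family member known as a direct p53 target, stood at 43.5 and 41.8 FPKM in YFP, against 169 and 58.4 FPKM in DEK. It was higher in both DEK libraries but missed the threshold (log2 fold change 1.20, 95% interval 0.09 to 2.32, adjusted p = 0.150). Reads of Gadd45a may be shared with E230016M11Rik, whose exons overlap it on the other strand in GENCODE M21 and which had a log2 fold change of 0.48.

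Btg1 and Btg2 are antiproliferative proteins that recruit the Ccr4-Not deadenylase to messenger RNAs. Btg2 stood at 39.6 and 33.3 FPKM in YFP, against 894 and 110.4 FPKM in DEK replicates 1 and 2. DEK replicate 2 was 2.79-fold above the higher YFP library and DEK replicate 1 a further 8.10-fold above that, and the test was missed (log2 fold change 3.08, 95% interval 0.93 to 5.23, adjusted p = 0.0862). Btg1, the most abundant of the 33 genes in YFP, stood at 315 and 364 FPKM in YFP, against 494 and 387 FPKM in DEK. Its groups did not overlap, by a narrow margin (log2 fold change 0.37, adjusted p = 0.229), and its pseudogenes Btg1-ps1 and Btg1-ps2 may share reads with it. Plk2 and Plk3, polo-like kinases of the stress response, also stood highest in DEK replicate 1 and next highest in DEK replicate 2. Plk2 stood at 11.5 and 12.4 FPKM in YFP, against 145 and 21.5 FPKM in DEK (adjusted p = 0.144). Plk3 stood at 5.76 and 6.89 FPKM in YFP, against 100.02 and 14.8 FPKM in DEK (adjusted p = 0.109). The 6 genes called in the fit lacking DEK replicate 2 were Btg2, Gadd45a, Gadd45b, Gadd45g, Plk2 and Plk3, which describes DEK replicate 1 against YFP and not the groups.

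**Figure D2:**
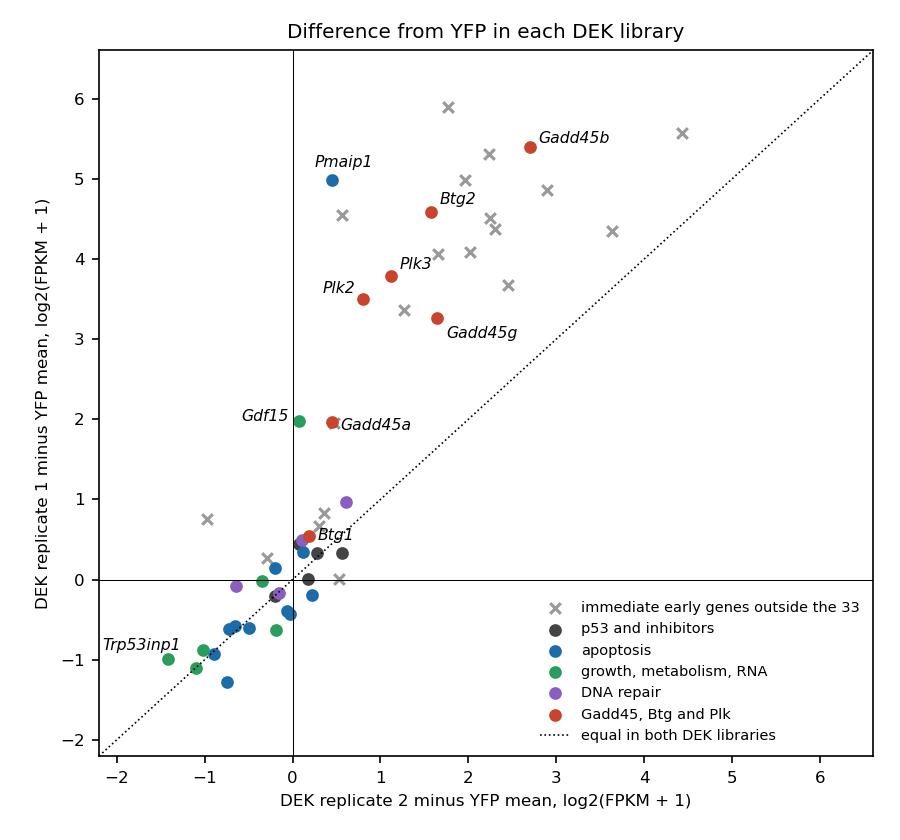
Difference of each DEK library from the YFP mean on the log2(FPKM + 1) scale, DEK replicate 1 on the vertical and DEK replicate 2 on the horizontal axis, for the 33 genes by role and 19 immediate early genes (grey crosses). Gadd45a, Gadd45b, Gadd45g, Btg2, Plk2, Plk3, Gdf15 and Pmaip1 lie far above the dotted line of equality, whereas the genes that fell lie near it.

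The 2 DEK libraries differed from each other in these genes more than in most. DEK replicate 1 was at least 2-fold above DEK replicate 2 on the log2(FPKM + 1) scale in 7 of the 30 genes tested (23.3%), against 1.87% of all genes tested. The 7 were Gadd45a, Gadd45b, Gadd45g, Btg2, Plk2, Plk3 and Gdf15. The median absolute log2 difference between the DEK libraries was 0.36 over the 30 genes and 0.20 over all genes tested. Between the YFP libraries it was 0.20 over the 30 genes and 0.20 over all genes tested. Gdf15, a secreted stress hormone, stood at 0.990 and 0.986 FPKM in YFP, against 6.84 and 1.09 FPKM in DEK replicates 1 and 2, so that DEK replicate 1 alone stood apart. Pmaip1, the BH3-only death gene Noxa, was listed at 0.797 and 0 FPKM in YFP, against 41.6 and 0.827 FPKM in DEK and was not tested. Immediate early genes outside the list had the same tilt by their median, but not evenly. Their log2 difference of DEK replicate 1 from DEK replicate 2 ran from -0.52 (Klf2) to 4.12 (Egr2), with a median of 1.96. For them, DEK replicates 1 and 2 exceeded the YFP mean by medians of 4.08 and 1.77 (log2, 19 genes), beside 3.50 and 1.12 for the 7 Gadd45, Btg and Plk genes. Of the 19 tested, 7 rose and 0 fell by limma, against 4.57% and 3.21% of all genes tested. Before adjustment 14 and 0 had a limma p under 0.05, against 16.9% and 12.2%. Ier5, at 0.502 and 0.327 FPKM in YFP, is among the 7 and the 14, and Egr3, at 0.571 and 0.822 FPKM in YFP, among the 14. Both passed the low filter only through their DEK libraries. Other quantities differed between DEK replicates 1 and 2 in both directions. Dek itself and the endothelial marker sum (199.9 and 171 FPKM) were higher in DEK replicate 1. The sums of macrophage (98.7 and 123 FPKM), other leukocyte (101.6 and 227 FPKM) and erythroid markers (39.4 and 357 FPKM) were higher in DEK replicate 2. Whether any of these had a part in the tilt was not tested.

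Among p53 and the genes that restrain it 0 of 5 passed the test. At an unadjusted p under 0.05 by limma, 1 was higher and 0 lower, against 16.9% and 12.2% of all genes tested. Trp53 stood at 52.4 and 59.8 FPKM in YFP, against 71.0 and 82.9 FPKM in DEK, without overlap (log2 fold change 0.45, 95% interval 0.07 to 0.82, adjusted p = 0.124), and its pseudogene Trp53-ps may share reads with it. Mdm4, which binds p53 and blocks its activity, stood at 39.0 and 40.8 FPKM in YFP, against 50.4 and 48.7 FPKM in DEK (log2 fold change 0.31, 95% interval -0.02 to 0.63, adjusted p = 0.194). Both genes were thus slightly higher in both DEK libraries by amounts that did not pass the correction. Mdm2, the ligase that degrades p53 and is induced by it, stood at 3.39 and 3.13 FPKM in YFP, against 4.79 and 3.48 FPKM in DEK. Its interval reached from -0.27 to 0.79 on the log2 scale. Cyclin G1 (Ccng1), a p53 target that acts on Mdm2, stood at 20.1 and 20.3 FPKM in YFP, against 17.4 and 17.5 FPKM in DEK (log2 fold change -0.21, adjusted p = 0.394). Ppm1d, a phosphatase that shuts the damage signal off, overlapped between the groups, at 8.38 and 5.95 FPKM in YFP and 7.12 and 8.16 FPKM in DEK.

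Of the 5 tested effectors of growth control, membrane signalling and RNA regulation 3 fell, where limma called 3.21% of all genes tested lower. Zmat3, a zinc finger RNA-binding protein that p53 induces, stood at 38.1 and 35.7 FPKM in YFP, against 16.6 and 16.7 FPKM in DEK. The libraries of each group were close together, and the difference exceeded their spread (log2 fold change -1.10 with an SE of 0.14, limma adjusted p = 0.0148). Trp53inp1, a p53-inducible protein of autophagy and cell death, stood at 107 and 102 FPKM in YFP, against 51.9 and 38.5 FPKM in DEK (log2 fold change -1.21 with an SE of 0.18, adjusted p = 0.0202). Phlda3, which competes with Akt for membrane lipids, stood at 24.7 and 24.3 FPKM in YFP, against 12.9 and 11.7 FPKM in DEK (log2 fold change -0.94 with an SE of 0.15, adjusted p = 0.0260). In all 3 the DEK values were well separated from the YFP values, and over 18 alternatives Zmat3, Trp53inp1 and Phlda3 kept the call in 12, 11 and 9, always with a negative fold change. Sestrins restrain the growth kinase mTORC1. Sesn1, the second most abundant of the 33 genes in YFP, overlapped between the groups at 129 and 97.3 FPKM in YFP and 71.9 and 98.1 FPKM in DEK (log2 fold change -0.41, 95% interval -0.93 to 0.11). Sesn2 was under 1 FPKM in all 4 libraries, from 0.330 to 0.696 FPKM.

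**Figure D3:**
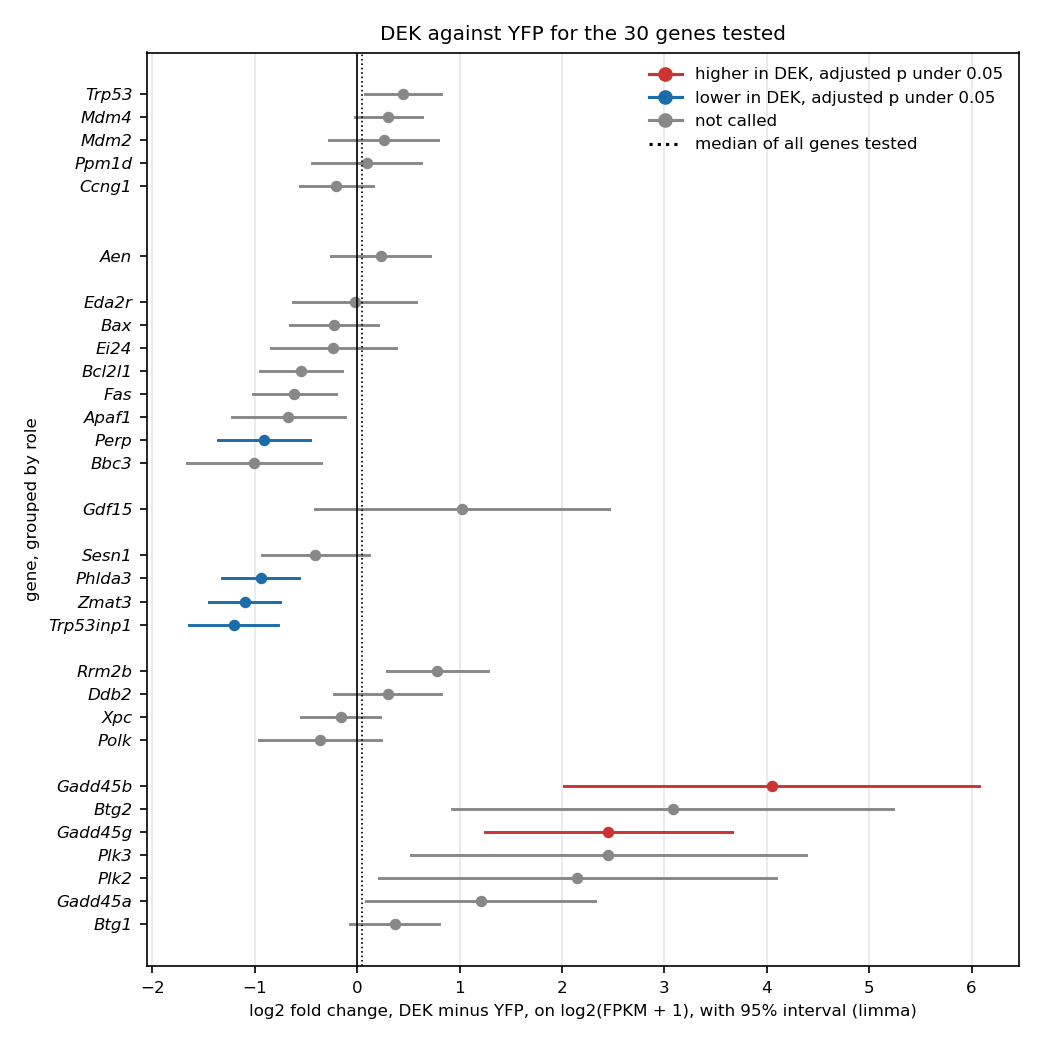
Log2 fold change of DEK over YFP on log2(FPKM + 1) with its 95% interval from limma for the 30 genes tested, grouped by role; red and blue mark genes called higher and lower, and the dotted line is the median of all genes tested (0.05). The intervals of the Gadd45, Btg and Plk genes other than Btg1 are wide, and the DEK libraries differ in the same genes, while those of Zmat3, Trp53inp1 and Phlda3 are narrow and lie below 0.

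Of the p53 effectors of apoptosis 1 of 9 tested fell and 0 rose, with 5 lower and 0 higher at an unadjusted p under 0.05 by limma, against 3.21% of all genes tested called lower and 12.2% lower before adjustment. Perp, a tetraspan membrane protein of cell junctions, stood at 10.9 and 13.4 FPKM in YFP, against 5.87 and 6.08 FPKM in DEK (log2 fold change -0.91 with an SE of 0.18, limma adjusted p = 0.0417). The call was kept in 8 of 18 alternatives, with an adjusted p from 0.0330 to 0.225. Bbc3, the BH3-only death gene Puma, stood at 10.19 and 14.7 FPKM in YFP, against 4.47 and 6.92 FPKM in DEK (log2 fold change -1.01, 95% interval -1.66 to -0.36, adjusted p = 0.0737). It did not overlap but varied more within groups. The death receptor Fas stood at 12.5 and 13.4 FPKM in YFP, against 8.36 and 7.83 FPKM in DEK (log2 fold change -0.62, adjusted p = 0.0763). Apaf1, the scaffold of the caspase-activating apoptosome, stood at 9.76 and 14.5 FPKM in YFP, against 7.41 and 6.82 FPKM in DEK (adjusted p = 0.121). Bcl2l1, which protects cells from death, was lower in DEK as well, at 25.8 and 21.7 FPKM against 15.3 and 16.5 FPKM (adjusted p = 0.0938). Protective Bcl2l1 thus lay on the same side of YFP as death-promoting Bbc3, Fas and Apaf1, none of them called.

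Apart from Pmaip1, given above with DEK replicate 1 far above the rest and not tested, the remaining apoptosis genes showed little separation. Bax, which opens the mitochondrial membrane, stood at 57.4 and 49.2 FPKM in YFP, against 40.1 and 51.0 FPKM in DEK and overlapped. So did Ei24, a membrane protein of the endoplasmic reticulum, at 16.3 and 24.8 against 14.7 and 19.7 FPKM, and the receptor Eda2r at 5.82 and 3.998 against 5.48 and 4.08 FPKM. In GENCODE M21, Bax has 22.1% of its exon bases in common with the protein-coding gene Gm45808 on the same strand. Reads of Bax may be shared with Gm45808, which has no value of its own here. The nuclease Aen was slightly higher in both DEK libraries, at 3.34 and 3.59 against 4.67 and 3.83 FPKM (adjusted p = 0.482). Tnfrsf10b, the mouse TRAIL death receptor, was under 1 FPKM throughout, from 0.472 to 0.967 FPKM.

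DNA repair genes were measured at low to moderate levels and 0 of 4 passed the test. At an unadjusted p under 0.05 by limma, 1 was higher and 0 lower, against 16.9% and 12.2% of all genes tested. Rrm2b, the p53-inducible subunit of ribonucleotide reductase that supplies nucleotides for repair, stood at 6.91 and 8.21 FPKM in YFP, against 15.7 and 11.97 FPKM in DEK (log2 fold change 0.78, 95% interval 0.29 to 1.28, adjusted p = 0.0700). Its groups did not overlap, and it was called in 0 of 18 alternatives. The damage sensors Ddb2 and Xpc differed in direction. Ddb2 stood at 5.999 and 5.23 FPKM in YFP, against 8.29 and 6.10 FPKM in DEK (log2 fold change 0.30, adjusted p = 0.395), and its exons overlap those of Acp2, on the other strand, which had a log2 fold change of -0.03. Xpc stood at 13.2 and 13.98 FPKM in YFP, against 11.99 and 12.1 FPKM in DEK (log2 fold change -0.16, adjusted p = 0.539). Polk, a polymerase that copies damaged DNA, stood at 5.56 and 5.48 FPKM in YFP, against 5.17 and 3.17 FPKM in DEK (adjusted p = 0.370).

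Other genes of the pathway gave no shared direction. Of 16 tested p53 activators and cofactors limma called 0, and the median log2 fold change was -0.22. Before adjustment 2 were higher and 4 lower at a limma p under 0.05, against 16.9% and 12.2% of all genes tested. Of 6 p53 inhibitors outside the list limma called 0, with 1 in each direction at an unadjusted p under 0.05. Among 21 further p53 targets 4 rose and 3 fell by limma, against 4.57% and 3.21% of all genes tested. The median was -0.09 beside 0.05 for all genes tested. Of the 4, Sfn, at 0.760 and 0.830 FPKM in YFP, passed the low filter only through its DEK libraries. Bcl6, a transcriptional repressor, rose from 92.0 and 64.2 FPKM to 229 and 209 FPKM (log2 fold change 1.496, adjusted p = 0.0155), and Ephx1, an epoxide hydrolase, from 182 and 183 FPKM to 295 and 279 FPKM (log2 fold change 0.65, adjusted p = 0.0401). Triap1, a lipid-transfer chaperone that counters apoptosis, fell from 8.29 and 7.78 FPKM to 2.96 and 3.85 FPKM (log2 fold change -1.04, adjusted p = 0.0374). The cell cycle inhibitor Cdkn1a, the best-known p53 target, is added with its values known, and it lay at 64.3 and 57.9 FPKM in YFP, against 76.1 and 15.5 FPKM in DEK replicates 1 and 2 (adjusted p = 0.459). The DEK libraries thus lay on either side of YFP.

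**Figure D4:**
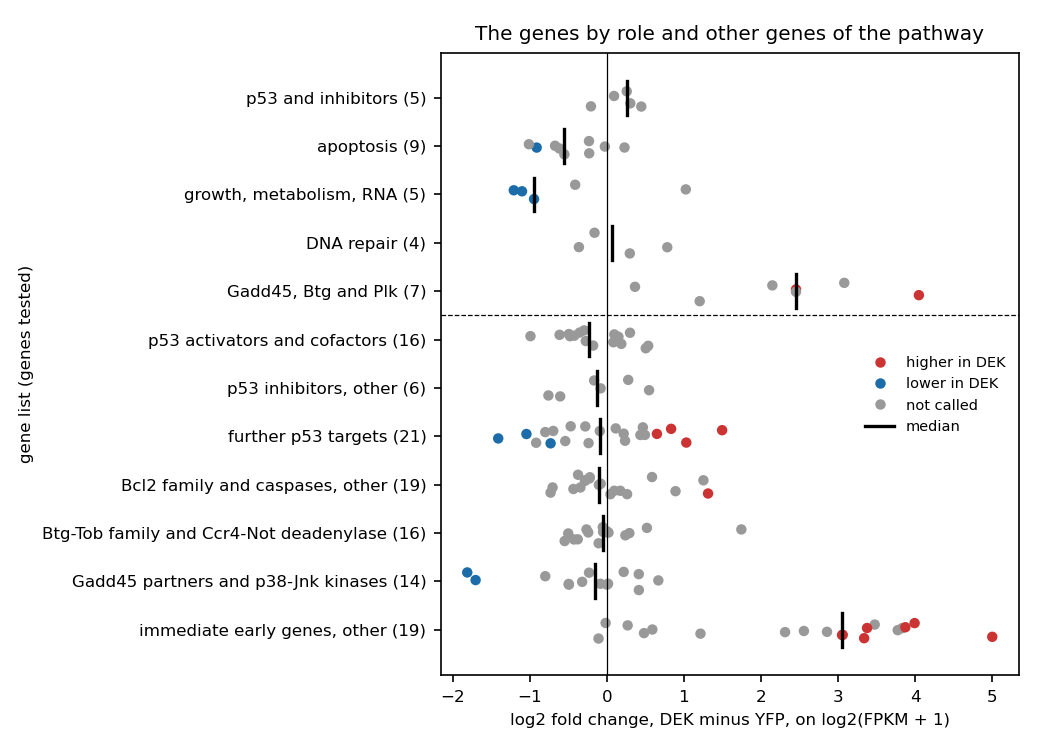
Log2 fold change of DEK over YFP on log2(FPKM + 1) for the tested genes of each role (above the dashed line) and of other lists of the pathway (below it); each point is a gene, black bars are medians, and red and blue mark calls. The median of the 7 Gadd45, Btg and Plk genes was 2.45 and that of the other immediate early genes 3.05, while the lists of p53 activators, inhibitors and further targets centre near 0.

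Partners of the stress-inducible genes were tested in the same fit. Of 16 tested genes of the Btg-Tob family and the Ccr4-Not deadenylase limma called 0. At an unadjusted limma p under 0.05, 1 was higher and 3 lower, against 16.9% and 12.2% of all genes tested. Tob1, an antiproliferative relative of Btg2 that was also singled out once its values were seen, lay at 28.5 and 24.2 FPKM in YFP, against 269 and 29.9 FPKM in DEK replicates 1 and 2, again with DEK replicate 1 apart (adjusted p = 0.260). Of 14 tested Gadd45 partners and p38-Jnk kinases 0 rose and 2 fell, both of these mitotic, with 0 higher and 4 lower at an unadjusted p under 0.05 by limma. Cdk1 went from 8.48 and 6.66 FPKM to 0.798 and 2.29 FPKM (log2 fold change -1.81, adjusted p = 0.0330) and its cyclin Ccnb1 from 5.66 and 5.69 FPKM to 0.403 and 2.01 FPKM (log2 fold change -1.70, adjusted p = 0.0489). Among 19 tested Bcl2 family genes and caspases 1 rose, Bok, a relative of Bax, from 45.9 and 38.3 FPKM to 87.0 and 128 FPKM (log2 fold change 1.31, adjusted p = 0.0275), and 0 fell, with 4 higher and 2 lower before adjustment at a p under 0.05 by limma. The Plk paralogs Plk1 and Plk4 were tested and limma called 0 of them, with 0 at an unadjusted p under 0.05.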

How the data were processed

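Each gene symbol has 1 deposited value in each library. The authors made these values, taken as FPKM, with STAR 2.5.3a and StringTie 1.3.3, besides R 3.4.1 and the mm9 genome, per the submitters' processing notes. Settings and annotation are not given in the sources used here. The unit is inferred from the values, and TPM is possible. The table holds no counts, so depth is unknown. After transformation to log2(FPKM + 1), limma 3.58.1 (R 4.3.3, variance trend, two-sided) was fitted to the 12179 genes that 2 or more libraries held at 1 FPKM or above, with Benjamini-Hochberg adjustment and calls at an adjusted p under 0.05. The fit was tested on simulated data. A fold change on this scale understates changes of low genes.

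The members and lists were chosen with earlier results of these data known. All 33 genes are named, with at most 4 called genes of each other list and 3 of each marker list, by the smallest p. Not all that this takes are described. Genes outside this rule are named too, such as Cdkn1a and Tob1 for their values and Klf2 and Egr2 as ends of a range. Ier5, Egr3, Sfn and Pi16 are named for their low YFP values. Alternatives left out each library, used a replicate block, added 0.1 or 5, dropped the filter or set it at 5 FPKM, scaled by TMM (trims of 30 and 5%), quantiles or without Rn45s, or fitted without the trend or robustly. The filter on 3 libraries was added after seeing the data. Promoters are from RefSeq (GRCm38.p6), and exon overlaps from GENCODE M21 (GRCm38); no coordinates were converted.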

Additional observations from a re-analysis of the deposited data

How the results depend on the processing

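Leaving out single libraries gave 0 to 139 genes called higher and 0 to 45 lower over the table, and 0 to 6 of the 33 genes higher and 0 lower. With the filter on the 3 libraries kept, 132 and 67 genes were higher and 36 and 16 lower without YFP replicates 1 and 2, 177 and 371 higher and 125 and 409 lower without DEK replicates 1 and 2, and 0 to 6 and 0 to 2 of the 33. The replicate block gave 235 genes lower, with 383 higher, and again 2 and 4 of the 33, with Perp lost (adjusted p = 0.0626) and Bbc3 gained (adjusted p = 0.0497). The numbers do not pair the libraries: across genes, the deviations of same-numbered libraries correlated at 0.0635. With no low filter 216 genes were higher and 77 lower, and of the 33 genes 0 were higher (6 at p under 0.05 before adjustment, by limma) and 1 lower, Zmat3. Of the 33 genes, 1 was called higher with an added value of 0.1 or 5, and 0 without the variance trend or with robust estimation (8 and 4 at p under 0.05 before adjustment, by limma). TMM, quantile and Rn45s-free scaling and the 5 FPKM filter kept 2 higher and 4 lower. Named genes gave 50 alternative values that lost a call, 10 that gained one and 0 that reversed one. Uncalled Eda2r, Ppm1d and Ei24 changed sign in 4, 3 and 2 alternatives. The median log2 fold change of the tested genes among the 33 lay between -0.16 and 0.19. The cause of these changes was not tested. No depth is known, so detection limits cannot be given for Pmaip1, Sesn2 or Tnfrsf10b.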
